A study of Sorghum bicolor with 18 samples.

Results

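The genes described here are those whose response to leaf removal changed sign between 1 and 6 h in sorghum (Sorghum bicolor, cultivar 100M) axillary buds. Axillary buds sit in the angle between a leaf and the stem, and each can stay arrested or grow out into a branch. A gene was included when its total exon reads differed between leaf-removed and intact plants at 1 h and again at 6 h, in opposite directions, each at a Benjamini-Hochberg adjusted p under 0.05 in the edgeR quasi-likelihood test. This held for 1505 of the 21506 genes tested, out of 34211 in the table. Of them, 491 were higher in leaf-removed buds at 1 h and lower at 6 h, called up-then-down below, and 1014 were lower at 1 h and higher at 6 h, called down-then-up.

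In leaf-removed plants the first leaf and the whole coleoptile, the sheath around the young shoot, were peeled away 7 days after sowing, which exposed the bud of the first leaf axil, and buds were taken 1, 3 or 6 h later. Intact plants kept both and their buds were taken at the same 3 times. Each of the 6 groups had 3 libraries, each made from a pool of 15 buds, and the pools were the 3 of best RNA quality out of 4. Replicates are pools, so the p-values measure the spread between pools of one cultivar, which may be partly technical. In pooled tissue, fewer cells of a type and less RNA per cell cannot be told apart.

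An arrested bud is known for low expression of the genes of DNA replication, ribosome production and cell division, and for high expression of dormancy-associated and sugar starvation genes. Growth after release runs in the opposite direction, with DNA replication needing the MCM helicase, origin proteins and DNA polymerases, and protein synthesis needing ribosomes, tRNA synthetases and initiation factors. Abscisic acid is a hormone of water stress that also restrains bud growth in several plants. Genes carry the name of their Arabidopsis match where the table gives one, and roles are given as known from Arabidopsis or from plants in general.

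The libraries held 21.4 to 45.8 M exon reads in the 12 libraries at 1 and 6 h and 24.9 to 32.5 M in the 6 at 3 h. Of the 12 libraries, intact 1 h replicate c, leaf-removed 1 h replicate d and replicate d of both groups at 6 h were known from earlier work on these data to deviate from their groups in a like way, and without these 4 libraries 804 genes were up-then-down and 1057 down-then-up. These took in 441 of the 491 and 837 of the 1014 genes of the main fit. Intron reads, which come largely from unspliced RNA, averaged 3.86% of gene reads in leaf-removed and 5.33% in intact buds at 1 h. The intact mean rested on replicate c with 7.23%, where replicates b and d had 4.63% and 4.12%. Leaf-removed libraries at 1 h had 3.12% to 4.65%, so the groups overlapped. The mean shares were 4.02% and 4.64% at 3 h, then 3.96% and 3.83% at 6 h. When this share entered the fit as a covariate, 800 genes were up-then-down and 1340 down-then-up, with 451 and 890 of the genes of the main fit among them. The summed expression of 38 meristem markers was 669 to 741 CPM (read counts scaled to library size) in leaf-removed and 734 to 935 CPM in intact buds at 1 h, 822 to 967 CPM against 816 to 848 CPM at 3 h, and 694 to 750.2 CPM against 820.3 to 947 CPM at 6 h. These sums were scaled by library totals alone, and on that scale leaf-removed buds were below intact ones at 6 h and overlapped at 1 and 3 h. The median log2 fold change of all tested genes on the same scale was -0.21 at 6 h. In the test fit, which corrects for RNA composition, the 33 tested meristem markers had a median of -0.12 at 6 h, with 3 higher and 4 lower. Each of the 38 markers had reads in some library. The 108 markers of leaf, 14 of them without a read in any library, summed to 4571 to 5869 CPM in leaf-removed and 3809 to 7158 CPM in intact buds at 1 h, to 5297 to 8067 CPM against 7912 to 12218 CPM at 3 h, and to 4877 to 7531 CPM against 6971 to 10045 CPM at 6 h. The 93 markers of stem, 12 without a read, summed to 1095 to 1375 CPM against 943 to 1077 CPM at 1 h, to 1060.3 to 1355 CPM against 1101 to 1183 CPM at 3 h, and to 892 to 1051 CPM against 1076 to 1278 CPM at 6 h. Stem sums of leaf-removed buds lay above all intact ones at 1 h, overlapped at 3 h and lay below them all at 6 h. In the test fit the 54 tested stem markers had median log2 fold changes of 0.69, 0.39 and 0.14 at 1, 3 and 6 h. The part of these tissues in the results was not tested.

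Reversal was the less common outcome among genes that changed at both times. Leaf removal changed 10222 genes (47.5% of those tested) at 1 h, with 5192 (24.1%) higher and 5030 (23.4%) lower. It changed 6658 (31%) at 3 h and 6766 (31.5%) at 6 h, the last with 3971 (18.5%) higher and 2795 (13%) lower. Both times were passed by 4031 genes (18.7%), of which 1623 (7.55%) were higher at both, 903 (4.2%) lower at both and 1505 (7%) reversed. The up-then-down genes were 2.28% and the down-then-up genes 4.71% of all tested. All 1505 passed the test of the interaction, the effect at 6 h minus the effect at 1 h, which 7893 genes (36.7%) passed in all. These counts describe the choice of the genes and support nothing further.

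The split between the directions depended on scaling. When libraries were scaled by their totals and not by TMM factors, which correct for RNA composition, the median of all tested genes was -0.25 at 1 h, against -0.03 with TMM, and -0.21 at 6 h, against 0.03. Under library totals 610 genes were up-then-down and 669 down-then-up, so the up-then-down share was 47.7% of reversed genes, against 32.6% on the TMM scale. Only 351 of the 491 up-then-down and 525 of the 1014 down-then-up genes of the TMM scale were among them. All directions given here refer to the TMM scale, apart from those of the marker sums above, which use library totals. Without leaf-removed 6 h replicate b the down-then-up genes numbered 660. The 3 values of leaf-removed buds did not overlap the 3 of intact buds, at 1 h and at 6 h alike and in opposite directions, for 475 of the 491 up-then-down and 981 of the 1014 down-then-up genes. Over all tested genes this held for 1062 (4.94%) and 1445 (6.72%). Changes of at least 2-fold at both times were found for 171 up-then-down and 113 down-then-up genes (1.32% of all tested for both together).

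**Figure D1:**
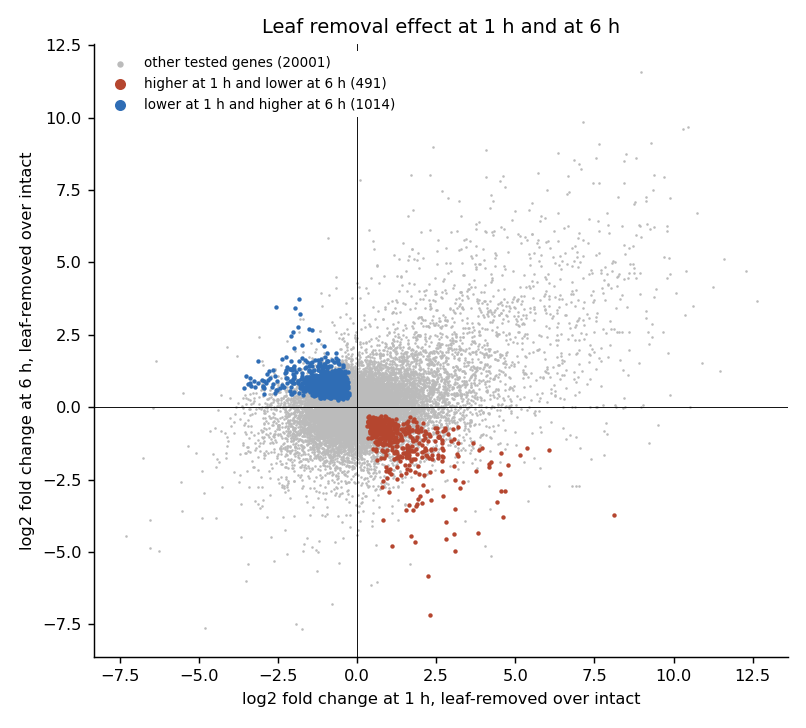
Log2 fold change, leaf-removed over intact, at 1 h (horizontal axis) and at 6 h (vertical axis) for the 21506 tested genes, from 3 libraries per group. The 491 up-then-down genes lie at the lower right, the 1014 down-then-up genes at the upper left, and the positions are fixed by the rule that chose them.

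The genes nearest the threshold show how the choice was bounded. Just inside, the AT-hook gene Sobic.006G273000 had log2 fold changes of 0.73 ± 0.25 at 1 h and -0.69 ± 0.25 at 6 h, with adjusted p values of 0.0284 and 0.04999. Also inside was the spindle pole gene Sobic.006G181800, with -0.96 ± 0.31 and 0.88 ± 0.31 and adjusted p values of 0.0253 and 0.0499. Just outside, the unannotated Sobic.010G215800 had 1.74 ± 0.43 and -1.21 ± 0.43, and the chaperone gene Sobic.003G063300 had -0.35 ± 0.14 and 1.43 ± 0.14. The first of these missed at 6 h and the second at 1 h. Calls this close to the threshold were also lost when single libraries were left out: Sobic.006G273000 kept its calls in 2 and Sobic.006G181800 in 1 of the 12 fits that leave out 1 library, with adjusted p values of up to 0.19 and 0.157 at 6 h. Of all 1505 genes, 686 kept both calls in all 12 such fits, 191 of them up-then-down and 495 down-then-up. Another 11 fits changed the test, scaling, filter, read type, blocks, covariate or set of libraries. Over these and the 12 together, 312 of the 1505 genes kept both calls in every fit.

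The 6 libraries at 3 h took no part in choosing the genes, and in them most of these genes already had the sign of their 6 h effect. Of the 491 up-then-down genes 185 (37.7%) were lower in leaf-removed buds at 3 h, 6 were higher and 300 did not pass, where 2868 (13.3%) of all tested genes were lower and 3790 (17.6%) higher. Of the 1014 down-then-up genes 403 (39.7%) were higher at 3 h, 71 (7.00%) were lower and 540 did not pass. By sign alone, 418 of the up-then-down genes were negative and 73 positive at 3 h, and 786 of the down-then-up genes were positive and 228 negative. The median log2 fold changes of the up-then-down genes were 1.04, -0.44 and -0.90 at 1, 3 and 6 h, those of the down-then-up genes -0.83, 0.32 and 0.75, and those of all tested genes -0.03, 0.04 and 0.03. The 3 h counts rested on single libraries. Without intact 3 h replicate a 101 of the up-then-down genes were lower and 218 of the down-then-up genes higher, without intact replicate b 119 and 245. The lower up-then-down genes numbered 122 without intact 3 h replicate c and 112 without leaf-removed 3 h replicate c. The higher up-then-down genes numbered 23 without leaf-removed 3 h replicate b. The lower down-then-up genes numbered 123 without that library and 41 to 47 without any other single library at 3 h. With library totals as scaling 249 of the down-then-up genes were higher.

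The level of each library describes the same course. At 1 and 6 h a separation of the groups follows from the rule, and only the 3 h libraries took no part in it. Set against the mean of intact buds at 1 h, the median log2 CPM of the up-then-down genes was 1.08, 1.17 and 0.94 in leaf-removed buds at 1 h, against -0.01, -0.15 and 0.17 in intact buds. At 3 h it was -0.31, -0.13 and -0.06, against 0.42, 0.33 and 0.33. At 6 h it was -0.40, -0.47 and -0.46, against 0.41, 0.51 and 0.40. The leaf-removed libraries were above the intact ones at 1 h and below them at 3 and 6 h, with no overlap at any time. For the down-then-up genes the values were -0.86, -0.86 and -0.71 in leaf-removed buds at 1 h, against -0.06, 0.15 and -0.08 in intact buds. They were 0.10, -0.09 and -0.13 at 3 h, against -0.38, -0.33 and -0.26, and 0.28, 0.33 and 0.42 at 6 h, against -0.31, -0.44 and -0.28. Here the leaf-removed libraries were below the intact ones at 1 h and above them at 3 and 6 h, again without overlap.

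**Figure D2:**
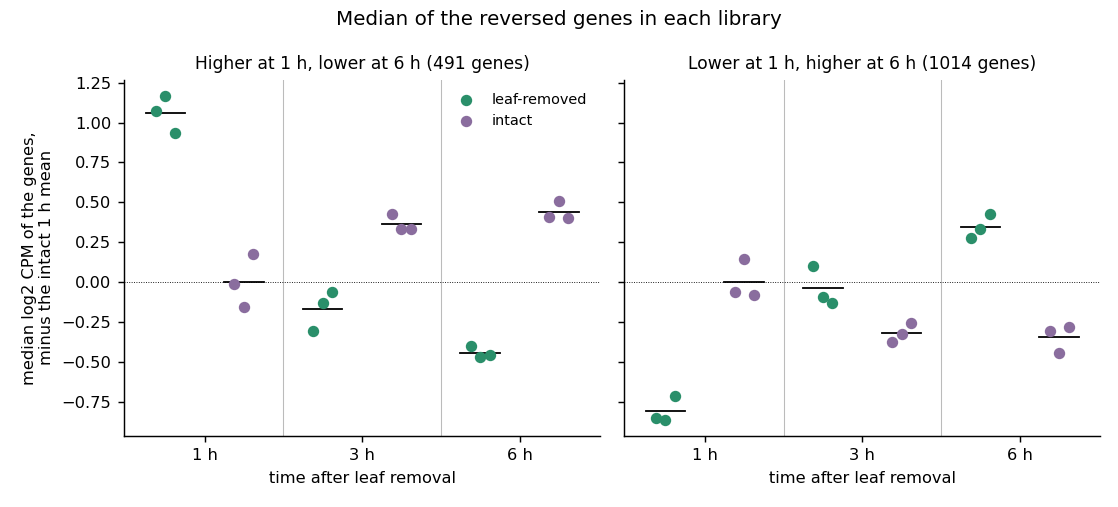
Median log2 CPM of the up-then-down genes (left) and the down-then-up genes (right) in each of the 18 libraries, minus the mean of intact buds at 1 h; dots are libraries and lines are group means. The 1 and 6 h libraries chose the genes, whereas the 3 h libraries did not, and at 3 h the leaf-removed libraries lie below the intact ones on the left (-0.31 to -0.06 against 0.33 to 0.42) and above them on the right (-0.13 to 0.10 against -0.38 to -0.26).

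Most of the movement between 1 and 6 h was in leaf-removed buds, and intact buds moved less and the other way. From 1 h to 6 h in leaf-removed buds the median log2 change was -1.51 for the up-then-down genes, with 478 lower, where 10347 (48.1%) of all tested genes were called, 5079 (23.6%) lower and 5268 (24.5%) higher. From 1 h to 6 h in intact buds it was 0.42, with 126 higher and 8 lower, where 1754 (8.16%) of all tested genes were called, 876 (4.07%) higher and 878 (4.08%) lower. For the down-then-up genes the medians were 1.28 in leaf-removed buds, with 1000 higher, and -0.36 in intact buds, with 7 higher and 242 lower. The leaf-removed buds moved further than the intact ones for 445 of the 491 and 962 of the 1014 genes, and also for 15257 of all 21506 tested genes. Only the intact buds moved past the threshold for 11 up-then-down and 14 down-then-up genes (518, or 2.41%, of all tested). These comparisons share their libraries with the rule and are a description.

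Among annotated up-then-down genes whose groups did not overlap and whose higher group averaged at least 5 CPM at 1 and 6 h, the largest reversal by the smaller of the 2 effects was that of a gene of unknown function, Sobic.004G221900, annotated DUF584. At 1 h it had 30.9, 40.1 and 19.9 CPM in leaf-removed buds, against 3.07, 2.29 and 5.36 CPM in intact buds. At 3 h it had 0.0973, 0.672 and 0.681 CPM in leaf-removed buds, against 9.93, 4.39 and 5.89 CPM in intact buds, and at 6 h 0.216, 0.289 and 0.477 CPM in leaf-removed buds, against 5.91, 9.81 and 4.999 CPM in intact buds. The groups did not overlap at any time, leaf-removed buds being high at 1 h and near the bottom of the range at 3 and 6 h. The log2 fold changes were 3.07 ± 0.38, -3.76 ± 0.64 and -4.38 ± 0.47 at 1, 3 and 6 h, and the one at 3 h passed the test (adjusted p = 0.0042).

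Genes of cell wall and growth were among the strongest up-then-down genes. Of 56 tested genes for expansins and wall loosening 4 (7.14%) were up-then-down, where 2.28% of all tested genes were. Of 211 genes for pectin and cellulose 2 (0.948%) were up-then-down, CESA3 and the pectin methylesterase gene PME1 (Sobic.001G024400), and 3 (1.42%) down-then-up, CSLC5 (Sobic.002G208200), a pectin lyase-like gene (Sobic.009G250800) and RAT4 (Sobic.010G093500), so both shares lay below those of all tested genes. Expansin-like A1 (Sobic.001G311000), of a family related to the expansins that loosen walls, had 47.1, 45.7 and 21.2 CPM in leaf-removed buds, against 1.09, 1.07 and 2.66 CPM in intact buds at 1 h. At 6 h it had 1.04, 0.675 and 0.477 CPM in leaf-removed buds, against 4.38, 7.43 and 5.28 CPM in intact buds. Leaf-removed replicate d was the lowest of its group at 1 h and still far above every intact library, and the groups did not overlap at 6 h either. The log2 fold changes were 4.55 ± 0.45 and -2.89 ± 0.45 at 1 and 6 h, and at 3 h -1.24 ± 0.53. EXORDIUM (Sobic.010G088700), a brassinosteroid-responsive promoter of leaf growth, had 56.1, 50.4 and 20.2 CPM in leaf-removed buds, against 2.95, 3.55 and 5.72 CPM in intact buds at 1 h. Its 6 h values were 1.15, 1.66 and 0.572 CPM in leaf-removed buds, against 4.93, 12.6 and 4.18 CPM in intact buds, with log2 fold changes of 3.36 ± 0.52 and -2.58 ± 0.54. At 3 h its groups overlapped and its value was -0.47 ± 0.34 (adjusted p = 0.335). XTH24 (Sobic.006G205600), which cuts and rejoins wall xyloglucan, had 4.18 ± 0.64, 1.17 ± 0.99 and -1.95 ± 0.57 at 1, 3 and 6 h, on 9.40 to 18.2 CPM in leaf-removed and 0.413 to 1.30 CPM in intact buds at 1 h. The others of the 4, XTH25 (Sobic.007G090463) and XTH30 (Sobic.004G273200), were chosen after values were seen and had 2.55 ± 0.29 and 0.84 ± 0.24 at 1 h and -1.02 ± 0.28 and -1.50 ± 0.25 at 6 h. None of these 4 genes passed at 3 h (adjusted p of 0.118, 0.414, 0.851 and 0.118). The cellulose synthase CESA3 (Sobic.001G045700), of the primary wall, was expressed far higher, with 420.0, 429 and 415 CPM in leaf-removed buds, against 231, 259.5 and 284 CPM in intact buds at 1 h. By 6 h it had 146, 141 and 161 CPM in leaf-removed buds, against 288, 221 and 297 CPM in intact buds, and its log2 fold changes were 0.69 ± 0.13, -0.63 ± 0.10 (adjusted p = 0.00295) and -0.79 ± 0.13 at the 3 times. GA2OX1 (Sobic.003G300800), an enzyme that inactivates gibberellin, a growth hormone, had 3.20 ± 0.43, -0.42 ± 0.54 (adjusted p = 0.593) and -1.22 ± 0.41. The 6 h call of XTH24 was lost without intact 6 h replicate a or leaf-removed 6 h replicates b or d (adjusted p up to 0.0925). XTH25 lost it without intact 6 h replicate c or leaf-removed 6 h replicate b (up to 0.055), and XTH30 lost its 1 h call without replicates b or c of leaf-removed 1 h (up to 0.108). The 6 h call of GA2OX1 was lost without intact 1 h replicate b, intact 6 h replicates a or c, leaf-removed 1 h replicate c or leaf-removed 6 h replicates b or d (up to 0.138).

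All 4 genes annotated dormancy/auxin associated, a family used as a marker of arrested buds, were up-then-down, where 2.28% of all tested genes were. This family was set apart after values were seen. The most abundant, Sobic.001G191200, had 232, 228 and 171 CPM in leaf-removed buds, against 63.8, 72.6 and 125 CPM in intact buds at 1 h. Its 3 h values were 26.5, 34.3 and 43.1 CPM in leaf-removed buds, against 267, 225 and 224 CPM in intact buds, and at 6 h 42.5, 37.4 and 55.5 CPM in leaf-removed buds, against 181, 359 and 235 CPM in intact buds. Leaf-removed buds were above all intact ones at 1 h and below them all at 3 and 6 h, and the log2 fold changes were 1.26 ± 0.29, -2.74 ± 0.19 and -2.46 ± 0.31. The others were Sobic.002G213800, with 2.10 ± 0.34, -1.55 ± 0.27 and -2.69 ± 0.35, Sobic.001G377000, with 0.82 ± 0.23, -2.62 ± 0.26 and -2.56 ± 0.24, and Sobic.007G148200, with 0.88 ± 0.23, -1.45 ± 0.18 and -1.13 ± 0.23. All 4 were lower at 3 h (adjusted p = 0.000129, 0.00447, 0.000469 and 0.00105). The wider list of dormancy-associated genes held 7 tested genes, these 4 included. Of the 7 genes 5 were higher and 2 lower at 1 h, 5 were lower at 6 h, and 1 was lower at both times. The 1 h call was lost for Sobic.001G377000 without replicates b or c of leaf-removed 1 h (adjusted p up to 0.0765) and for Sobic.007G148200 without replicate c (0.0526).

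Some genes of starvation and carbon use were up-then-down, but as a list they were no more often so than other genes. Of 252 tested genes of sugar use and starvation 6 (2.38%) were up-then-down, where 2.28% of all tested genes were, 3 (1.19%) were down-then-up, and 37 were higher at both times. The 3 were a gene annotated TPS14, a terpene synthase that the list takes in by its symbol (Sobic.004G019100), a phosphate translocator gene (Sobic.009G088200) and RAT4 (Sobic.010G093500). ASN1 (Sobic.001G406800), asparagine synthetase, which stores nitrogen and is induced by darkness and low sugar, had 283, 349 and 197 CPM in leaf-removed buds, against 64.3, 29.1 and 112 CPM in intact buds at 1 h. By 3 h it had 83.5, 124 and 218 CPM in leaf-removed buds, against 243, 269.9 and 259 CPM in intact buds, and at 6 h 21.05, 31.1 and 11.3 CPM in leaf-removed buds, against 165, 234 and 156 CPM in intact buds. The groups were apart at all 3 times, with leaf-removed buds high at 1 h and low at 3 and 6 h, and 83.0% of its reads were unique. The log2 fold changes were 2.003 ± 0.44, -0.82 ± 0.31 and -3.07 ± 0.47, of which the one at 3 h did not pass (adjusted p = 0.0821). Of 9 genes with symbols of starvation and senescence genes, a family drawn up after values were seen, 4 were up-then-down: ASN1, XTH24 (named above), SEN1 (Sobic.010G270300), with 3.18 ± 0.20, -0.41 ± 0.25 and -0.69 ± 0.19, and DIN10 (Sobic.010G057300), annotated as raffinose synthase, with 1.78 ± 0.32, -0.96 ± 0.25 and -1.14 ± 0.32. BAM9 (Sobic.001G372100), a beta-amylase annotated in the starch-degrading family, had 4.18 ± 0.68 at 1 h on 193, 211 and 77.02 CPM in leaf-removed buds, against 8.49, 2.45 and 15.4 CPM in intact buds. At 6 h it had -2.06 ± 0.66. Trehalose phosphate synthase TPS6 (Sobic.002G194700), of a sugar-signalling pathway, had 1.42 ± 0.22, -1.21 ± 0.18 (adjusted p = 0.00232) and -1.14 ± 0.22, and PCK1 (Sobic.001G432800), an enzyme of sugar formation from organic acids, 1.49 ± 0.33, -0.26 ± 0.26 (adjusted p = 0.487) and -1.57 ± 0.33. The 6 h call was lost for SEN1 without intact 6 h replicate d (adjusted p = 0.0594) and for DIN10 without intact 6 h replicate a or leaf-removed 6 h replicate d (up to 0.0643). For BAM9 it was lost without intact 6 h replicates a or c or any single leaf-removed 6 h library (up to 0.153), and for XTH24 without intact 6 h replicate a or leaf-removed 6 h replicates b or d (up to 0.0925).

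Of 117 tested abscisic acid genes 8 (6.84%) were up-then-down, where 2.28% of all tested genes were. Of the others 1 was down-then-up, THO6 (Sobic.002G181400), 13 were higher and 7 lower at both times. The up-then-down genes numbered 12 with library totals as scaling and 14 without the 4 deviating libraries. The 8 had medians of 2.72, -0.98 and -1.19 at 1, 3 and 6 h. At 3 h all 8 were negative, and 3 of the 8 passed the test, HAB1, HAI2 and RCAR3, or 5 with library totals. On the main scale 418 of all 491 up-then-down genes were negative at 3 h and 185 (37.7%) passed as lower, a like share. Of 11 phosphatases of the PP2C group, which shut off abscisic acid signalling, 4 reversed: HAB1, HAI2 and a pair of genes annotated HAI3. That group, HAB1, RCAR3 and AREB1 were singled out after values were seen. HAB1 (Sobic.009G213000) had 162, 171 and 156 CPM in leaf-removed buds, against 17.4, 25.5 and 22.9 CPM in intact buds at 1 h. In the 3 h libraries it had 13.2, 14.8 and 18.4 CPM in leaf-removed buds, against 42.00, 32.7 and 32.3 CPM in intact buds, and at 6 h 20.2, 18.01 and 20.6 CPM in leaf-removed buds, against 33.6, 40.9 and 42.04 CPM in intact buds. The groups were apart at all times, and the log2 fold changes were 2.88 ± 0.16, -1.16 ± 0.17 (adjusted p = 0.00258) and -0.94 ± 0.15. HAI2 (Sobic.003G354000) had 2.67 ± 0.37, -1.98 ± 0.38 (adjusted p = 0.00758) and -1.13 ± 0.36. The HAI3 genes Sobic.009G238600 and Sobic.002G172000 had 2.47 ± 0.37 and 3.67 ± 0.38 at 1 h. Their 3 h values were -0.13 ± 0.48 and -1.12 ± 0.38, and their 6 h values -1.44 ± 0.37 and -1.25 ± 0.37. RCAR3 (Sobic.009G080200), a receptor of the hormone, had 1.46 ± 0.18, -0.84 ± 0.16 (adjusted p = 0.00777) and -0.58 ± 0.17, and AREB1 (Sobic.004G309600), a transcription factor of the response, 2.77 ± 0.25, -0.56 ± 0.20 (adjusted p = 0.0731) and -0.71 ± 0.24. A LEA glycoprotein gene (Sobic.001G022400), of a family that the list takes in by its title, had 1.90 ± 0.43, -0.62 ± 0.42 and -1.62 ± 0.44. XERICO (Sobic.002G239200), a RING protein that promotes abscisic acid accumulation, had 1.57 ± 0.37, -0.88 ± 0.16 (adjusted p = 0.00588) and -1.40 ± 0.38. Calls at 6 h were lost for HAI2 without intact 6 h replicate c or any single leaf-removed 6 h library (adjusted p up to 0.138), for Sobic.009G238600 and XERICO without intact 6 h replicate c (0.0569 and 0.0654), and for Sobic.002G172000 without that library or leaf-removed 6 h replicates b or d (up to 0.0953). RCAR3 lost it without intact 6 h replicates a or c or leaf-removed 6 h replicate d (up to 0.0846), and AREB1 when any single 6 h library or leaf-removed 1 h replicate b was left out (up to 0.117).

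Most reversed WRKY, NAC, MYB and heat shock factors were up-then-down, though most genes of these groups did not reverse. Of 237 WRKY, NAC and MYB genes 12 (5.06%) were up-then-down, where 2.28% of all tested genes were. Another 31 were higher and 9 lower at both times. Only 1 (0.422%) was down-then-up, where 4.71% of all tested genes were. It was a gene titled vascular-related NAC-domain 6 (Sobic.006G173500), with -0.86 ± 0.17, 0.98 ± 0.11 (adjusted p = 0.00074) and 0.59 ± 0.17. With library totals as scaling 12 were up-then-down, and this gene was no longer called. A myb-like gene (Sobic.003G034300) had 33.03, 30.7 and 18.7 CPM in leaf-removed buds, against 1.44, 0.551 and 2.33 CPM in intact buds at 1 h. In the 6 h libraries it had 3.06, 3.13 and 1.62 CPM in leaf-removed buds, against 7.53, 15.04 and 7.86 CPM in intact buds, with log2 fold changes of 4.25 ± 0.49 and -1.90 ± 0.45, and at 3 h -0.15 ± 0.53 (adjusted p = 0.859). ANAC081 (Sobic.003G334600), a stress-induced NAC factor, had 2.68 ± 0.36, -0.79 ± 0.60 (adjusted p = 0.358) and -1.86 ± 0.36. Of 20 heat shock factors, a family set apart after values were seen, 5 were up-then-down and 2 were higher at both times. The 5 were a pair annotated HSFA6B, Sobic.001G243000 with 1.19 ± 0.18, -0.60 ± 0.12 and -1.10 ± 0.18 and Sobic.001G057700 with 0.40 ± 0.11, -0.79 ± 0.10 and -0.89 ± 0.11, HSFC1 (Sobic.010G164400), with 2.79 ± 0.23, -1.40 ± 0.24 and -0.77 ± 0.22, and a pair annotated HSFB2A, Sobic.007G180300 and Sobic.002G271100, with 2.55 ± 0.42 and 1.89 ± 0.28 at 1 h and -1.66 ± 0.47 and -0.80 ± 0.28 at 6 h. Both HSFA6B genes and HSFC1 were lower at 3 h (adjusted p = 0.00937, 0.00138 and 0.0042). The homeobox gene ATHB40 (Sobic.002G353800), which acts with abscisic acid in buds of Arabidopsis, had 1.96 ± 0.37, -1.40 ± 0.30 (adjusted p = 0.0116) and -1.24 ± 0.38. The 6 h call was lost for HSFC1 without intact 6 h replicate c or leaf-removed 6 h replicates a or b (adjusted p up to 0.0831), and for ATHB40 without intact 6 h replicates a or c or leaf-removed 6 h replicate d (up to 0.0872). The HSFB2A gene Sobic.007G180300 lost it without intact 6 h replicate c or leaf-removed 6 h replicates b or d (up to 0.0612), and Sobic.002G271100 when any of 8 of the 12 libraries was left out (up to 0.219). The NAC-domain 6 gene, chosen after its values were seen, lost it without intact 6 h replicates a or d or leaf-removed 6 h replicates b or d (up to 0.101).

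A few genes of light, cytokinin, auxin and ethylene signalling were up-then-down. Of 82 tested genes of clock and light signalling 5 (6.10%) were up-then-down and 1 (1.22%) was down-then-up, a chloroplast import gene that the list takes in by its symbol (Sobic.009G046800). Of 134 auxin genes 8 (5.97%) were up-then-down, 4 of them the dormancy/auxin associated genes above, and 2 (1.49%) were down-then-up, SAR1 (Sobic.004G038100) and SAR3 (Sobic.001G488100). Of 130 ethylene and AP2/ERF genes 6 (4.62%) were up-then-down and 1 (0.769%) was down-then-up, and both counts take in a translation release factor by its symbol, ERF1-2 (Sobic.009G118600) and ERF1-3 (Sobic.001G123500). The shares of all tested genes were 2.28% and 4.71%. CIB1 (Sobic.004G267400), a partner of the blue-light receptor cryptochrome, had 22.02, 25.6 and 19.6 CPM in leaf-removed buds, against 7.94, 12.8 and 14.3 CPM in intact buds at 1 h. At 6 h it had 3.45, 2.82 and 3.29 CPM in leaf-removed buds, against 12.7, 8.45 and 10.2 CPM in intact buds. Its log2 fold changes were 0.92 ± 0.23, -0.96 ± 0.22 (adjusted p = 0.0157) and -1.66 ± 0.24, and the groups did not overlap at 1 or 6 h. A B-box zinc finger gene (Sobic.007G062100) had 1.49 ± 0.19, -0.34 ± 0.20 (adjusted p = 0.233) and -0.81 ± 0.19. Of 8 phytochrome-interacting factors, which act in shade and dark growth, 2 reversed, PIF3 (Sobic.003G136900), with 0.63 ± 0.13, -0.71 ± 0.12 and -1.17 ± 0.13, and PIL6 (Sobic.001G068301), with 0.67 ± 0.16, -0.17 ± 0.17 and -0.79 ± 0.16. The response regulator ARR12 (Sobic.004G066600), which activates genes in response to cytokinin, a hormone of bud outgrowth, had 105, 95.1 and 89.3 CPM in leaf-removed buds, against 52.5, 51.8 and 67.9 CPM in intact buds at 1 h. Its 6 h values were 47.03, 43.3 and 38.4 CPM in leaf-removed buds, against 104, 115 and 93.9 CPM in intact buds, and its log2 fold changes were 0.74 ± 0.14, -0.61 ± 0.10 (adjusted p = 0.00429) and -1.23 ± 0.14. It was the 1 reversed gene among 45 tested cytokinin genes, a share of 2.22%, close to the 2.28% of all tested genes that were up-then-down. The auxin receptor AFB3 (Sobic.005G126600) had 1.66 ± 0.16, -0.05 ± 0.12 and -0.84 ± 0.16. Of 16 ethylene signalling genes 3 reversed, the receptor EIN4 (Sobic.006G018800), with 0.67 ± 0.15 at 1 h and -0.67 ± 0.15 at 6 h, the F-box gene EBF1 (Sobic.010G186200), which degrades the pathway's transcription factors, with 1.61 ± 0.24 and -0.77 ± 0.23, and the transcription factor EIL1 (Sobic.002G422300), with 2.17 ± 0.57 and -1.66 ± 0.58. The PIF, ethylene and AFB3 entries were chosen after values were seen. EBF1 lost its 6 h call without intact 6 h replicate a or leaf-removed 6 h replicates b or d (adjusted p up to 0.0894). EIL1 kept its calls in 3 of the 12, and only without replicate c of intact 1 h, replicate d of intact 6 h or replicate d of leaf-removed 1 h (up to 0.167 in the others).

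Most reversed genes of calcium signalling, receptor kinases and resistance were up-then-down, though most genes of these lists did not reverse. Of 249 calcium and touch genes 16 (6.43%) were up-then-down, where 2.28% of all tested genes were. At 3 h 8 of the 16 were lower, where 37.7% of all up-then-down genes and 13.3% of all tested genes were. Another 5 (2.01%) were down-then-up, DRL1 (Sobic.002G009200), SCABP8 (Sobic.003G275000), Sobic.004G082800, Sobic.006G067400 and Sobic.006G160100, where 4.71% of all tested genes were. With library totals as scaling 22 were up-then-down and 1 down-then-up. CIPK10 (Sobic.005G012000), a kinase switched on by calcium sensors, had 374, 579 and 469.7 CPM in leaf-removed buds, against 82.7, 121 and 164 CPM in intact buds at 1 h. At 3 h it had 30.6, 31.9 and 39.8 CPM in leaf-removed buds, against 132, 86.5 and 92.5 CPM in intact buds, and at 6 h 25.4, 21.3 and 34.7 CPM in leaf-removed buds, against 99.2, 115 and 129 CPM in intact buds. Leaf-removed buds were above intact ones at 1 h and below them at 3 and 6 h, with log2 fold changes of 1.94 ± 0.26, -1.56 ± 0.19 (adjusted p = 0.000985) and -2.03 ± 0.26. Among 27 such kinases, a family set apart after values were seen, 4 were up-then-down, where 2.28% of all tested genes were. The others, also chosen after values were seen, were CIPK18 (Sobic.009G195800), with 0.78 ± 0.18, -0.86 ± 0.25 and -1.48 ± 0.18, CIPK1 (Sobic.003G139500), with 1.57 ± 0.19, -0.36 ± 0.10 and -0.55 ± 0.19, and a further gene with the title of CIPK10 (Sobic.008G032000), with 0.80 ± 0.24, -1.51 ± 0.19 and -2.75 ± 0.25. All 4 were lower at 3 h, with adjusted p values of 0.000985, 0.0346, 0.0264 and 0.00119. A gene for a calcium-dependent lipid-binding protein (Sobic.003G416500) had 1.76 ± 0.46, -0.24 ± 0.80 and -1.77 ± 0.46. Of 420 receptor and MAP kinases 19 (4.52%) were up-then-down and 1 (0.238%) down-then-up, WAK5 (Sobic.006G243700). The 19 included EVERSHED (Sobic.010G120800), with 1.78 ± 0.39 and -1.16 ± 0.39 at 1 and 6 h, and a leucine-rich repeat kinase (Sobic.010G242000), with 0.91 ± 0.24, -1.22 ± 0.36 (adjusted p = 0.0353) and -1.27 ± 0.25. At 3 h 5 of the 19 were lower and 2 higher, where 37.7% of all up-then-down genes were lower and 1.22% higher. The 2 were FERONIA (Sobic.001G353900), a sensor of wall and growth signals, with 2.002 ± 0.16, 1.07 ± 0.13 and -0.77 ± 0.16, and a receptor-like protein gene, RLP6 (Sobic.007G141700), with 2.72 ± 0.40, 1.33 ± 0.32 and -1.49 ± 0.45. Both were chosen after values were seen, and both passed at all 3 times (adjusted p = 0.00118 and 0.0176 at 3 h). Of 202 NB-ARC genes, which encode pathogen receptors inside the cell, 12 were up-then-down (8 with library totals as scaling). This family was also set apart after values were seen, and 2.28% of all tested genes were up-then-down. Examples were Sobic.002G303100, with 1.19 ± 0.26, -0.57 ± 0.18 and -1.16 ± 0.26, and RPM1 (Sobic.005G096300), with 1.04 ± 0.19, -0.29 ± 0.19 and -1.22 ± 0.20. Calls were lost for Sobic.003G416500 without intact 6 h replicate c (adjusted p = 0.0513), for Sobic.008G032000 without intact 1 h replicate b or leaf-removed 1 h replicate c (up to 0.114), for EVERSHED without intact 1 h replicate b, intact 6 h replicate c or leaf-removed 6 h replicates b or d (up to 0.198), for CIPK1 without intact 1 h replicate d, any intact 6 h library or leaf-removed 6 h replicates a or b (up to 0.129), and for RLP6 without intact 6 h replicates a or d or leaf-removed 6 h replicates b or d (up to 0.0823).

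The remaining up-then-down genes named by the rule came from several pathways. The copper chaperone CCH (Sobic.004G164200), linked to senescence, had 260.1, 285 and 165 CPM in leaf-removed buds, against 53.7, 43.1 and 65.7 CPM in intact buds at 1 h. By 6 h it had 19.7, 19.2 and 10.4 CPM in leaf-removed buds, against 107, 94.6 and 59.6 CPM in intact buds, with log2 fold changes of 2.11 ± 0.29, -1.14 ± 0.14 (adjusted p = 0.000962) and -2.35 ± 0.30 at the 3 times. ERF1-2 (Sobic.009G118600), a release factor that ends translation, had 14.9, 15.4 and 14.7 CPM in leaf-removed buds, against 2.91, 1.38 and 2.60 CPM in intact buds at 1 h. In the 6 h libraries it had 1.19, 1.18 and 1.10 CPM in leaf-removed buds, against 5.44, 5.56 and 5.66 CPM in intact buds, so that the spread within groups was small beside the changes of 2.70 ± 0.24 and -2.21 ± 0.25. The potassium permease KUP11 (Sobic.006G213500) had 1.86 ± 0.16, -0.38 ± 0.15 and -1.12 ± 0.16, the microtubule-bundling MAP65-7 (Sobic.002G221700) 1.58 ± 0.32, -1.12 ± 0.17 and -1.55 ± 0.32, and a lipase (Sobic.001G024200) 0.84 ± 0.13, -1.07 ± 0.13 and -0.98 ± 0.13. Of these, MAP65-7 and the lipase were lower at 3 h (adjusted p = 0.00286 and 0.00116) and KUP11 did not pass (0.0947). A DnaJ chaperone (Sobic.010G267000) had 3.95 ± 0.41 and -1.41 ± 0.39, the glutathione transferase GSTU25 (Sobic.010G175800) 3.07 ± 0.59 and -2.04 ± 0.59, a remorin (Sobic.002G344700, 45.5% of reads unique) 2.32 ± 0.60 and -2.25 ± 0.63, the subtilase SDD1 (Sobic.001G529700) 1.59 ± 0.47 and -1.53 ± 0.47, a SET7/9 methyltransferase gene (Sobic.007G154701) 1.45 ± 0.25 and -0.83 ± 0.25, and a peroxidase (Sobic.001G277000) 0.99 ± 0.31 and -0.94 ± 0.31. Each of these last 6 genes lost a call when a single library was left out. The libraries were intact 6 h replicate c or leaf-removed 6 h replicate b for the DnaJ gene (adjusted p up to 0.0765), intact 6 h replicate c or leaf-removed 6 h replicates a or d for GSTU25 (up to 0.0707), and intact 6 h replicate c or leaf-removed 6 h replicates b or d for the remorin (up to 0.0711). For SDD1 they were intact 6 h replicates a or c, leaf-removed 1 h replicates b or c, or leaf-removed 6 h replicate d (up to 0.0854), for the SET7/9 gene intact 6 h replicates c or d or leaf-removed 6 h replicates b or d (up to 0.0898), and for the peroxidase any of 7 of the 12 libraries (up to 0.161).

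Of the 491 up-then-down genes 46 had no annotation at all, and 2 of these were named by the rule. The first, Sobic.001G255700, had 91.3, 132 and 42.4 CPM in leaf-removed buds, against 3.27, 0.330 and 7.27 CPM in intact buds at 1 h. Its 3 h values were 0.130, 0.485 and 0.681 CPM in leaf-removed buds, against 8.43, 4.46 and 7.31 CPM in intact buds, and at 6 h 0.648, 0.772 and 0.238 CPM in leaf-removed buds, against 6.12, 14.7 and 4.53 CPM in intact buds. It was high in leaf-removed buds at 1 h and under 1 CPM in all of them at 3 and 6 h, with log2 fold changes of 4.60 ± 0.82, -3.93 ± 0.55 (adjusted p = 0.00189) and -3.79 ± 0.90. The second, Sobic.002G039500, had 2.28 ± 0.29, -1.62 ± 0.25 (adjusted p = 0.0029) and -1.75 ± 0.30.

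**Figure D3:**
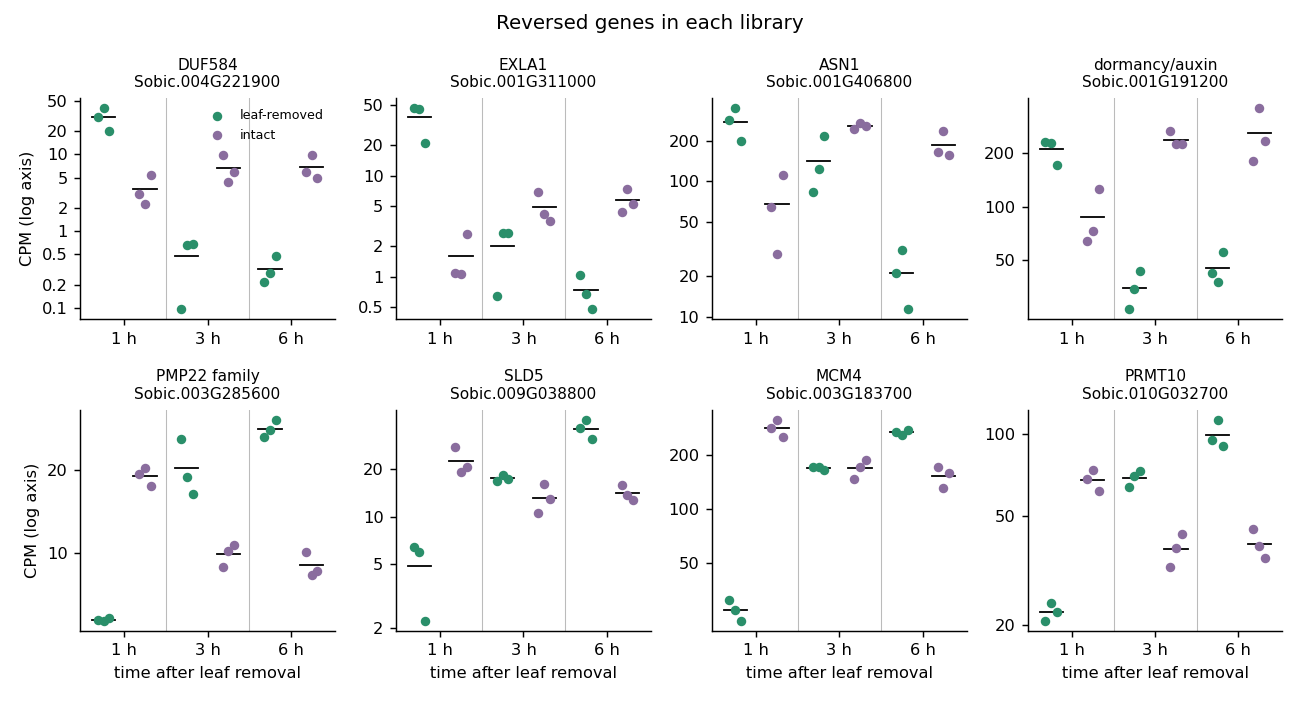
CPM (log axes that differ between panels) of 4 up-then-down genes (top row) and 4 down-then-up genes (bottom row) in each of the 18 libraries at 1, 3 and 6 h; dots are libraries and lines are group means. For DUF584, leaf-removed libraries lie above intact ones at 1 h and below them at 3 and 6 h, while for MCM4 they lie below at 1 h (23.8 to 31.1 against 253 to 315 CPM), overlap at 3 h and lie above at 6 h (258 to 275 against 131 to 171 CPM).

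DNA replication held the highest share of down-then-up genes among the lists of function: 25 of 70 tested genes, where 4.71% of all tested genes were down-then-up. In the other direction the edgeR test called none (0) of the 70, DESeq2 0 and an unadjusted p under 0.05 also 0. These 25 had median log2 fold changes of -2.22, -0.27 and 0.79 at 1, 3 and 6 h, and the medians of all 70 were -1.27, -0.44 and 0.25. With library totals as scaling 19 of the 70 were down-then-up, where 669 of all 21506 tested genes were. The median of all 70 was then 0.01 at 6 h. MCM4 (Sobic.003G183700), a subunit of the helicase that opens DNA ahead of the fork, was chosen after values were seen. It had 31.1, 27.4 and 23.8 CPM in leaf-removed buds, against 283, 315 and 253 CPM in intact buds at 1 h. By 3 h it had 170.5, 171 and 165 CPM in leaf-removed buds, against 147, 171 and 187 CPM in intact buds, and at 6 h 269, 258 and 275 CPM in leaf-removed buds, against 171, 131 and 159.7 CPM in intact buds. Leaf-removed buds were far below the intact level at 1 h, overlapped with intact buds at 3 h and exceeded all of them at 6 h. The log2 fold changes were -3.38 ± 0.15, 0.04 ± 0.11 (adjusted p = 0.801) and 0.85 ± 0.14. Of 12 tested genes for MCM subunits and their relatives all 12 were lower at 1 h, where 23.4% of all tested genes were, 5 were lower at 3 h (13.3% of all) and 7 were higher at 6 h (18.5% of all). At 6 h 1 was lower, a gene annotated MCM2 (Sobic.005G110523).

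Genes that load and fire origins and that copy DNA were also down-then-up. CDC6 (Sobic.003G361200), which loads the helicase, had 4.80, 3.96 and 4.83 CPM in leaf-removed buds, against 28.5, 35.02 and 21.98 CPM in intact buds at 1 h. At 6 h it had 36.9, 34.3 and 43.9 CPM in leaf-removed buds, against 17.7, 10.5 and 21.03 CPM in intact buds, and the log2 fold changes were -2.66 ± 0.26, 0.31 ± 0.15 (adjusted p = 0.155) and 1.28 ± 0.25. SLD5 (Sobic.009G038800), a subunit of the GINS complex of the active helicase, had 6.41, 5.99 and 2.21 CPM in leaf-removed buds, against 27.7, 19.2 and 20.4 CPM in intact buds at 1 h. Its 6 h values were 36.1, 40.9 and 30.7 CPM in leaf-removed buds, against 15.7, 13.8 and 12.7 CPM in intact buds, with -2.22 ± 0.31, 0.46 ± 0.18 (adjusted p = 0.0943) and 1.40 ± 0.30. Named after values were seen, ORC1A (Sobic.010G067900), of the origin recognition complex, had -1.25 ± 0.13, -0.70 ± 0.12 and 0.82 ± 0.13, and was lower at 3 h (adjusted p = 0.00513). The large primase subunit (Sobic.006G051000), which starts new strands, had 5.82, 6.42 and 3.46 CPM in leaf-removed buds, against 57.5, 70.7 and 49.5 CPM in intact buds at 1 h, and log2 fold changes of -3.52 ± 0.23, 0.25 ± 0.12 (adjusted p = 0.145) and 1.08 ± 0.21. RNR1 (Sobic.010G054600), which makes deoxynucleotides, had -2.43 ± 0.16, -0.43 ± 0.13 (adjusted p = 0.0434) and 0.68 ± 0.15. Of 19 DNA polymerase and primase genes 10 were down-then-up, where 4.71% of all tested genes were. Of 12 origin genes 3 were, CDC6, ORC1A and, also chosen after values were seen, ORC6 (Sobic.002G385400), with -1.48 ± 0.21, -0.63 ± 0.17 (adjusted p = 0.0236) and 0.92 ± 0.20.

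At 3 h the medians of the reversed replication and translation genes lay on different sides of intact buds. Of the 25 reversed replication genes the edgeR test called 11 lower and 0 higher at 3 h, DESeq2 12 and 0, and an unadjusted p under 0.05 13 and 1, with 19 negative and 6 positive values between -1.13 and 0.46. Among all down-then-up genes 39.7% were higher and 7.00% lower at 3 h, and among all tested genes 17.6% and 13.3%. Of the 61 reversed genes of ribosome biogenesis and translation 35 were higher and 2 lower, with 54 positive and 7 negative values. The 2 were histidyl-tRNA synthetase HRS1 (Sobic.003G040000), with -0.46 ± 0.14 (adjusted p = 0.0405), and an elongation factor P gene (Sobic.008G030000), with -0.74 ± 0.13 (adjusted p = 0.00438), both chosen after values were seen. At 6 h the call was lost for HRS1 without leaf-removed 6 h replicate b (adjusted p = 0.051) and for the elongation factor P gene without intact 6 h replicates a or c or any single leaf-removed 6 h library (up to 0.106). The median of the replication genes, set against intact buds of the same time, was -1.82, -2.07 and -2.48 in leaf-removed buds at 1 h. It was -0.26, -0.30 and -0.29 at 3 h, against -0.15, -0.01 and 0.13 in intact buds, and 0.69, 0.75 and 0.84 at 6 h. The median of the translation genes in leaf-removed buds was -0.82, -0.76 and -0.61 at 1 h. It reached 0.61, 0.35 and 0.35 at 3 h, against -0.03, -0.03 and 0.06 in intact buds, and 0.62, 0.67 and 0.76 at 6 h. With DESeq2 size factors as scaling 11 replication genes were lower and 34 translation genes higher at 3 h, and with library totals 13 and 27, with medians of -0.43 and 0.35 where the median of all tested genes was -0.12. The difference between the lists was not tested.

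**Figure D4:**
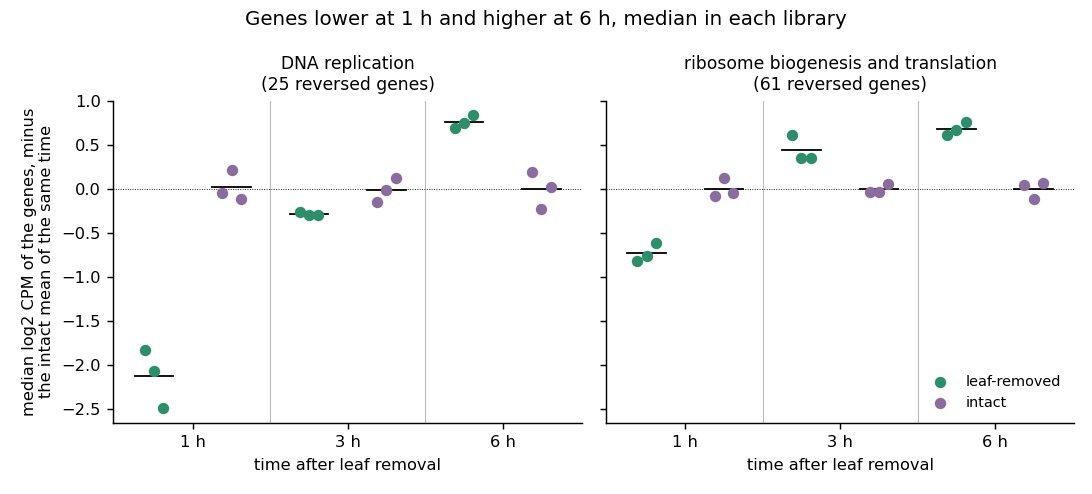
Median log2 CPM of the 25 down-then-up genes of DNA replication (left) and the 61 of ribosome biogenesis and translation (right) in each library, minus the mean of intact buds at the same time; dots are libraries and lines are group means. At 3 h, in libraries not used to choose the genes, leaf-removed buds lie at -0.30 to -0.26 on the left and at 0.35 to 0.61 on the right.

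Ribosome biogenesis and translation held the largest number of down-then-up genes, 61 (26.6%) of 229 tested, where 4.71% of all tested genes were down-then-up. With library totals as scaling the list held 49, where 669 of all 21506 tested genes were down-then-up. The medians of all 229 were -0.47, 0.17 and 0.38 at 1, 3 and 6 h. STRS1 (Sobic.002G112100), a DEAD-box RNA helicase, had 56.6, 47.5 and 54.1 CPM in leaf-removed buds, against 99.4, 121 and 101 CPM in intact buds at 1 h. In the 3 h libraries it had 124, 126 and 129 CPM in leaf-removed buds, against 59.2, 67.5 and 73.8 CPM in intact buds, and at 6 h 146, 142 and 154 CPM in leaf-removed buds, against 70.8, 54.6 and 65.96 CPM in intact buds. Leaf-removed buds were below all intact ones at 1 h and above them all at 3 and 6 h, with log2 fold changes of -1.04 ± 0.14, 0.96 ± 0.11 (adjusted p = 0.000772) and 1.26 ± 0.14. An elongation factor gene (Sobic.003G297800) had -1.26 ± 0.20, 0.59 ± 0.14 (adjusted p = 0.0163) and 1.05 ± 0.19. Further genes were chosen after values were seen. FIB2 (Sobic.004G349700), a nucleolar methyltransferase of ribosomal RNA, had -0.69 ± 0.13, 0.86 ± 0.12 (adjusted p = 0.00176) and 0.79 ± 0.13, and its partner NOP56 (Sobic.001G371100) -0.80 ± 0.13, 0.38 ± 0.11 (adjusted p = 0.0293) and 0.78 ± 0.13. The initiation factor subunit TIF3A1 (Sobic.003G036400) had -0.41 ± 0.11, 0.66 ± 0.09 and 0.90 ± 0.11, and seryl-tRNA synthetase (Sobic.001G468600) -0.56 ± 0.09, 0.84 ± 0.09 and 1.08 ± 0.09, both higher at 3 h (adjusted p = 0.00187 and 0.000646). By family, 19 of 53 tRNA synthetases, 9 of 16 subunits of initiation factor 3 and 13 of 47 DEAD-box helicases were down-then-up, or 11, 8 and 8 with library totals. Of the 229 genes 3 went the other way. They were an arginyl-tRNA synthetase (Sobic.001G446900), with 0.997 ± 0.15, -0.60 ± 0.18 (adjusted p = 0.0411) and -1.31 ± 0.16, a nucleolar protein gene (Sobic.002G121000), with 1.40 ± 0.18, -0.65 ± 0.12 (adjusted p = 0.00609) and -0.75 ± 0.18, and a gene titled elongation factor EF1B (Sobic.010G047400), with 0.85 ± 0.13, -0.30 ± 0.15 and -0.41 ± 0.13. The last lost its 6 h call without intact 6 h replicate c or leaf-removed 6 h replicate a (adjusted p up to 0.0972).

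Of 301 genes for ribosomal proteins 39 were down-then-up, where 4.71% of all tested genes were. With library totals as scaling 54 were, where 669 of all 21506 tested genes were down-then-up. At 3 h, on the main scale, 39.7% of all down-then-up genes were higher and 7.00% lower. Of all tested genes 17.6% were higher and 13.3% lower. Of the 39 genes 27 were higher and 1 lower at 3 h, and with library totals 16 and 1. The 1 was RPL15 (Sobic.001G453300), chosen after values were seen, with -0.76 ± 0.17, -0.70 ± 0.19 (adjusted p = 0.027) and 0.51 ± 0.17, which kept its calls in 3 of the 12 fits that leave out 1 library (adjusted p up to 0.162). The L35Ae gene (Sobic.009G225900) had 28.5, 20.3 and 26.1 CPM in leaf-removed buds, against 50.2, 59.97 and 32.9 CPM in intact buds at 1 h. At 3 h it had 57.03, 40.9 and 45.9 CPM in leaf-removed buds, against 22.8, 25.7 and 26.9 CPM in intact buds, and at 6 h 45.2, 53.4 and 55.9 CPM in leaf-removed buds, against 17.4, 22.7 and 22.4 CPM in intact buds. Its log2 fold changes were -0.95 ± 0.22, 0.97 ± 0.15 (adjusted p = 0.00268) and 1.36 ± 0.22, and the groups were apart at each time. An S18 gene (Sobic.001G257700) had -1.26 ± 0.11, 1.20 ± 0.14 (adjusted p = 0.000809) and 0.88 ± 0.11, with 61.3% of its reads unique, so a part of its counts may belong to a near-identical copy.

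Some chromatin and cell division genes were also down-then-up. Of 145 chromatin genes 14 (9.66%) were down-then-up, where 4.71% of all tested genes were, or 8 with library totals as scaling, and 1 was up-then-down, CMT2 (Sobic.009G083900). Of the 14 genes 2 are sterol methyltransferases that the list takes in by name. PRMT10 (Sobic.010G032700), a protein arginine methyltransferase, had 20.7, 23.99 and 22.3 CPM in leaf-removed buds, against 68.2, 73.8 and 61.9 CPM in intact buds at 1 h. Its 3 h values were 64.00, 69.7 and 72.7 CPM in leaf-removed buds, against 32.7, 38.1 and 43.1 CPM in intact buds, and at 6 h 94.95, 113 and 89.7 CPM in leaf-removed buds, against 44.6, 38.8 and 35.2 CPM in intact buds. The groups did not overlap at any time, and the log2 fold changes were -1.62 ± 0.13, 0.90 ± 0.13 (adjusted p = 0.00225) and 1.38 ± 0.13. PRMT3 (Sobic.002G145300), of the same family, had -1.36 ± 0.13, 0.79 ± 0.12 (adjusted p = 0.00261) and 1.13 ± 0.13. FAS1 (Sobic.003G387600), which loads histones behind the replication fork, had -3.25 ± 0.19, -0.69 ± 0.12 (adjusted p = 0.0046) and 0.90 ± 0.17 and so was lower at 3 h, unlike both PRMT genes. PRMT3 and FAS1 were chosen after values were seen. A histone-binding WD40 gene, MSI3 (Sobic.002G280700), had 15.6, 14.9 and 9.25 CPM in leaf-removed buds, against 44.1, 52.4 and 43.7 CPM in intact buds at 1 h. By 6 h it had 71.96, 80.4 and 84.3 CPM in leaf-removed buds, against 33.7, 24.6 and 23.1 CPM in intact buds, with -1.83 ± 0.21, -0.30 ± 0.14 (adjusted p = 0.136) and 1.59 ± 0.20. A SET domain gene (Sobic.007G089800) had -1.12 ± 0.18, 0.38 ± 0.13 and 1.18 ± 0.17. Of 141 genes for cyclins and mitosis 12 (8.51%) were down-then-up and 3 (2.13%) up-then-down, MAP65-7 (Sobic.002G221700), CDKC;1 (Sobic.009G125000) and a cyclin-like gene (Sobic.002G276900). With library totals as scaling 5 were down-then-up and 5 up-then-down, so the direction of this list depended on scaling. Of the 12 genes 2 are ribosome recycling factors whose title matched by letters alone. Cyclin CYCA2;3 (Sobic.008G104000), a brake on the switch to endoreduplication, had 11.3, 9.08 and 9.10 CPM in leaf-removed buds, against 17.9, 26.4 and 17.3 CPM in intact buds at 1 h. In the 6 h libraries it had 34.6, 39.5 and 46.3 CPM in leaf-removed buds, against 19.8, 12.4 and 18.9 CPM in intact buds, with -1.08 ± 0.23, -0.76 ± 0.19 (adjusted p = 0.0218) and 1.29 ± 0.22.

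Genes of protein folding reversed in both directions. Of 267 genes for heat shock proteins and chaperones 22 (8.24%) were down-then-up and 14 (5.24%) up-then-down, where 4.71% and 2.28% of all tested genes were. Of 14 chaperonin genes of the CCT and cpn60 type, which fold tubulin, actin and plastid proteins, 10 were down-then-up, or 8 with library totals as scaling. Chaperonin-60 alpha (Sobic.009G098100), chosen after values were seen, had 128, 135 and 149.6 CPM in leaf-removed buds, against 216, 226 and 228 CPM in intact buds at 1 h. At 6 h it had 369, 416 and 394 CPM in leaf-removed buds, against 139, 133 and 146 CPM in intact buds, with -0.71 ± 0.10, 0.09 ± 0.17 (adjusted p = 0.717) and 1.55 ± 0.10. At 3 h the median of the 10 chaperonin genes was 0.14, and -0.02 with library totals. Of 365 genes for mitochondria and glycolysis 25 (6.85%) were down-then-up, where 4.71% of all tested genes were. Of the 25 genes 12 were higher at 3 h, or 9 with library totals. On the main scale 39.7% of all down-then-up genes and 17.6% of all tested genes were higher at 3 h. Another 4 (1.10%) were up-then-down, PCK1 (named above), THA1 (Sobic.006G147450), GAPC1 (Sobic.010G100200) and a substrate carrier gene (Sobic.009G213400). An aldolase-type gene (Sobic.001G069900) had -1.10 ± 0.11, 0.90 ± 0.11 (adjusted p = 0.00104) and 0.91 ± 0.11. Of 254 pentatricopeptide repeat genes, whose products process organelle RNA, 21 were down-then-up. With library totals 8 of the 254 were, a share close to that of all tested genes, of which 669 of 21506 were. The protease gene DEGP2 (Sobic.009G042200), which acts in chloroplasts, had 10.1, 7.92 and 10.7 CPM in leaf-removed buds, against 23.5, 30.2 and 22.6 CPM in intact buds at 1 h. At 3 h its groups overlapped, and at 6 h it had 61.1, 75.7 and 97.4 CPM in leaf-removed buds, against 24.3, 22.7 and 35.4 CPM in intact buds. Its log2 fold changes were -1.42 ± 0.23, -0.10 ± 0.18 (adjusted p = 0.726) and 1.56 ± 0.23.

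Under the same conditions of annotation, level and separate groups, the down-then-up gene with the largest reversal by the smaller of its 2 effects encodes a peroxisomal membrane protein of the PMP22 family (Sobic.003G285600). It had 5.74, 5.70 and 5.82 CPM in leaf-removed buds, against 19.3, 20.2 and 17.4 CPM in intact buds at 1 h. By 3 h it had 25.7, 18.8 and 16.3 CPM in leaf-removed buds, against 8.87, 10.1 and 10.7 CPM in intact buds, and at 6 h 26.2, 27.9 and 30.3 CPM in leaf-removed buds, against 10.1, 8.31 and 8.61 CPM in intact buds. Leaf-removed buds held less than every intact library at 1 h and more at 3 and 6 h, and the log2 fold changes were -1.73 ± 0.14, 1.07 ± 0.19 (adjusted p = 0.00557) and 1.69 ± 0.14. A bHLH factor (Sobic.001G488400) had 2.83, 2.22 and 0.774 CPM in leaf-removed buds, against 23.6, 14.1 and 13.1 CPM in intact buds at 1 h. In the 3 h libraries it had 40.7, 54.7 and 53.1 CPM in leaf-removed buds, against 8.47, 13.2 and 9.60 CPM in intact buds, with -3.14 ± 0.44, 2.29 ± 0.21 (adjusted p = 0.000327) and 1.61 ± 0.39. A WD40 gene (Sobic.001G535100) had -2.08 ± 0.19, 0.85 ± 0.18 (adjusted p = 0.0108) and 1.59 ± 0.18, and a glutamine amidotransferase-like gene (Sobic.007G155600) -1.42 ± 0.21, -0.03 ± 0.21 (adjusted p = 0.923) and 1.42 ± 0.21. BR6OX2 (Sobic.001G172400), which makes the last step of brassinosteroid synthesis, had 13.2, 11.8 and 12.7 CPM in leaf-removed buds, against 20.3, 21.1 and 17.2 CPM in intact buds at 1 h. At 3 h it had 61.9, 56.6 and 73.2 CPM in leaf-removed buds, against 10.8, 13.8 and 12.9 CPM in intact buds, and at 6 h 20.01, 18.3 and 17.7 CPM in leaf-removed buds, against 12.5, 12.1 and 10.6 CPM in intact buds. Its effect at 3 h, 2.39 ± 0.15 (adjusted p = 9.63e-05), was higher than those at 1 h (-0.65 ± 0.14) and 6 h (0.72 ± 0.14). BRH1 (Sobic.010G006400), a brassinosteroid-responsive RING protein, had -2.26 ± 0.35, 1.40 ± 0.27 (adjusted p = 0.00691) and 1.17 ± 0.33. A gene titled nitrate reductase 1 (Sobic.007G153900) had -1.39 ± 0.28, 1.55 ± 0.17 (adjusted p = 0.000732) and 1.04 ± 0.27, a pectin lyase-like gene (Sobic.009G250800) -1.21 ± 0.17, 0.72 ± 0.13 and 0.71 ± 0.17, and a lipid transfer protein gene (Sobic.004G291500) -1.64 ± 0.24, 0.62 ± 0.14 and 0.83 ± 0.23. The 6 h call was lost for BRH1 without intact 6 h replicate a or leaf-removed 6 h replicates b or d (adjusted p up to 0.0715), for the nitrate reductase without leaf-removed 6 h replicates a or b (up to 0.0594), and for the lipid transfer gene without intact 6 h replicate d or leaf-removed 6 h replicate b (up to 0.0821).

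Of the 1014 down-then-up genes 35 had no annotation, and 2 of these were named by the rule. The first, Sobic.009G206900, had 2.08, 1.54 and 2.80 CPM in leaf-removed buds, against 10.9, 20.1 and 6.75 CPM in intact buds at 1 h. Its 6 h values were 15.6, 21.8 and 31.9 CPM in leaf-removed buds, against 3.02, 1.43 and 2.14 CPM in intact buds, with -2.56 ± 0.44, 0.90 ± 0.36 (adjusted p = 0.0947) and 3.45 ± 0.45. The second, Sobic.010G259800, had -1.80 ± 0.32, 1.52 ± 0.25 (adjusted p = 0.00362) and 3.21 ± 0.33. From the photosynthesis list, a Rubisco methyltransferase gene (Sobic.004G255500) had -0.76 ± 0.16, -0.003 ± 0.19 and 0.56 ± 0.16, and a PsbP-family gene (Sobic.003G221700) -0.44 ± 0.12, -0.05 ± 0.19 and 0.72 ± 0.12. The call of the Rubisco methyltransferase gene was lost without intact 6 h replicates a or c or leaf-removed 6 h replicates b or d (adjusted p up to 0.0908).

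Jasmonate genes, which respond to wounding, did not reverse. Of 46 tested genes for jasmonate synthesis and signalling none (0) was reversed in either direction by the edgeR test. DESeq2 called 1 up-then-down and 0 down-then-up, and an unadjusted p under 0.05 also 1 and 0. Leaf-removed buds were higher at both times for 24 of the 46, and for 13 of 15 JAZ repressors, a family of the pathway. Among 54 stem and 33 meristem markers the edgeR test called 0 reversed genes, DESeq2 1 and 0, and an unadjusted p 2 and 1, where 7% of all tested genes were reversed. The summed stem markers of leaf-removed buds, on library totals, still lay above all intact libraries at 1 h and below them all at 6 h. Of 84 leaf markers 2 (2.38%) were down-then-up, the Rubisco methyltransferase and PsbP-family genes above. Counts of all lists with 4 or more reversed genes are in the plot of reversed genes per list. The annotation lists held 439 of the 1505 reversed genes, 183 up-then-down and 256 down-then-up, so most reversed genes are in no list.

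**Figure D5:**
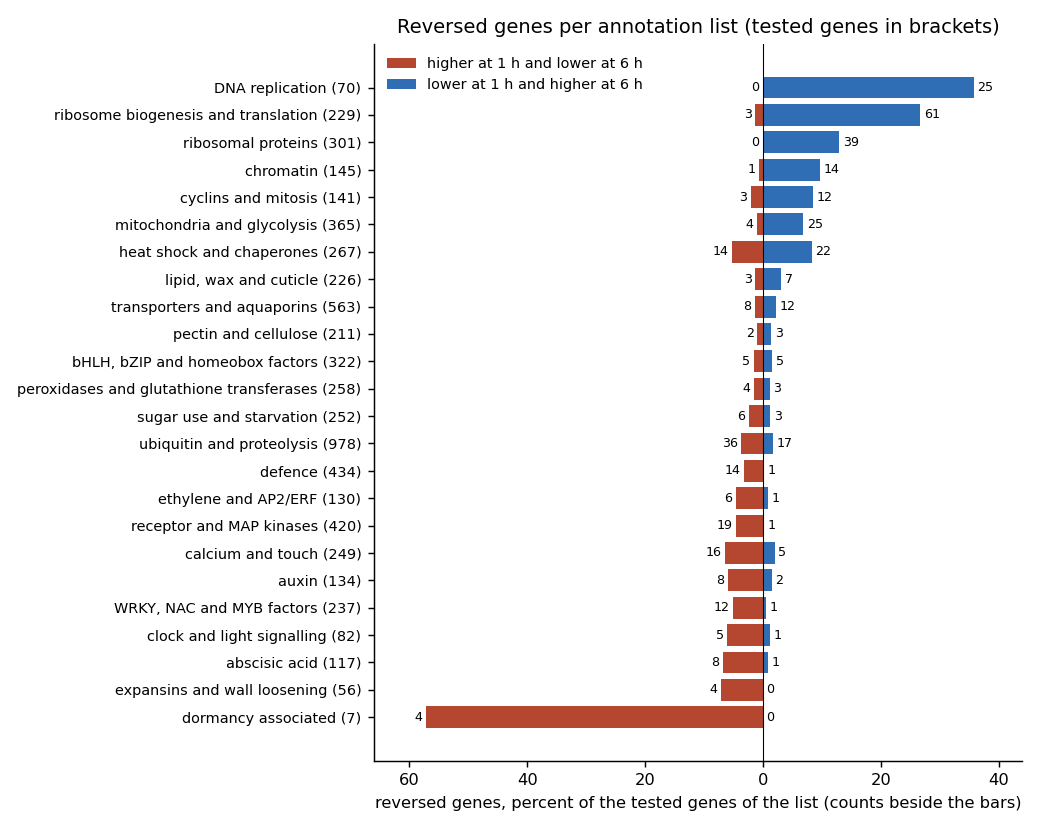
Share of the tested genes of each annotation list that were up-then-down (bars to the left) and down-then-up (bars to the right), in percent, with counts beside the bars and the number tested in brackets. DNA replication (25 of 70) and ribosome biogenesis (61 of 229) lie to the right, the 7 dormancy-associated genes (4 reversed) to the left, and over all tested genes the shares were 2.28% and 4.71%.

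Among annotated genes that averaged at least 5 CPM in their highest group, the widest differences between the effects at 6 and 1 h belonged to genes that did not reverse, since they lacked a called change at one of the times. Outside these conditions reversed genes had differences as wide, down to -11.8 for the low-expressed Sobic.009G182400, annotated EID1-like 3. An alpha/beta-hydrolase gene (Sobic.002G042000) had 77.9, 94.8 and 35.7 CPM in leaf-removed buds, against 0.0320, 0 and 0.0303 CPM in intact buds at 1 h. Its 3 h values were 2.30, 3.06 and 4.09 CPM in leaf-removed buds, against 0.0366, 0.0750 and 0 CPM in intact buds, and at 6 h 0.0360, 0.217 and 0.0477 CPM in leaf-removed buds, against 0.0851, 0 and 0.0629 CPM in intact buds. The homeobox gene ATHB-7 (Sobic.004G300300), induced by abscisic acid, had 96.02, 82.3 and 45.03 CPM in leaf-removed buds, against 0.192, 0.330 and 0.454 CPM in intact buds at 1 h and at most 0.439 CPM in any library at 6 h. Slightly wider than that of ATHB-7 (-9.44) was the difference of Sobic.001G239601 (-9.49), of the adenine nucleotide hydrolase-like family. This gene had 10.1, 15.3 and 11.8 CPM in leaf-removed buds, against 0.0320, 0.275 and 0 CPM in intact buds at 1 h. On the positive side, MYC-2 (Sobic.006G175500), annotated as a bHLH factor, had 4.97, 5.62 and 6.29 CPM in leaf-removed buds, against 0.298, 0.146 and 0.314 CPM in intact buds at 6 h and -0.67 ± 0.35 at 1 h (adjusted p = 0.133). CSLD5 (Sobic.002G334200), a cellulose synthase-like gene of dividing cells, had 13.9, 10.9 and 14.3 CPM in leaf-removed buds, against 0.425, 0.439 and 0.0629 CPM in intact buds at 6 h, and a glycosyl hydrolase gene (Sobic.001G014700) had -4.10 ± 1.06 at 1 h and 2.07 ± 0.94 at 6 h (adjusted p = 0.114).

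Intron reads of the same genes moved in the same directions for most down-then-up genes. Of 694 down-then-up genes with at least 20 intron reads per library on average, 601 (86.6%) had a negative value at 1 h and a positive one at 6 h, as did 40.2% of all 10554 genes with that many reads. Their medians were -1.11, 0.36 and 0.65 at 1, 3 and 6 h, where those of all such genes were -0.36, -0.04 and 0.15. Of 254 up-then-down genes 147 (57.9%) were positive and then negative, as were 13.4% of all such genes, with medians of 0.54, -0.41 and -0.36. Intron and exon reads come from the same libraries, so this is a second count of the same pools and not a replicate. The reversed genes were also expressed above the typical level, with a median of 9.44 RPKM (reads scaled to gene length and library size by the authors) for the up-then-down and 18.3 RPKM for the down-then-up genes, against 6.81 RPKM for all tested.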

How the data were processed

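The deposited table gives total exon reads, unique exon reads and intron reads as raw counts per gene and library, and RPKM computed by the authors, per the file headers. Per the labels' protocols, total RNA came from a Trizol extraction with a DNase step, and TruSeq libraries were sequenced. The aligner, its settings and the genome build are not given in the sources used here, and coordinates and sequences were not used. Pools were grouped by treatment and time.

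Total exon counts of the 12 libraries at 1 and 6 h were tested with edgeR 4.0.16 (quasi-likelihood F test, TMM factors, genes kept by filterByExpr, Benjamini-Hochberg adjusted p under 0.05) in R 4.3.3. The 3 h libraries were tested in a fit of their own on the same genes, which leaves 4 residual degrees of freedom against 8. Standard errors are the absolute log2 fold change over the root of F. CPM values use TMM factors over 18 libraries, apart from the marker sums, which use library totals. Members and lists were chosen with earlier results of these data known. Genes named are the 8 per direction whose smaller effect was widest, given a group mean of 5 CPM or more, up to 2 per list, 2 unannotated ones per direction, 3 interaction extremes per sign and the threshold's neighbours. Others are marked, or named without values to complete a count, and were chosen after their values were seen. Families counted within or beside the lists were likewise set apart after values were seen. A dormancy pattern that matched branched-chain enzymes and methyltransferases was corrected after values were seen. The fits were tested on simulated data. Alternatives were DESeq2 1.42.0, other scalings, filters, read types, a replicate block, an intron covariate and leaving out libraries.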

Additional observations from a re-analysis of the deposited data

Results flagged for a closer look

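The effect of leaf removal differed between the times by a test of the difference itself, the interaction of treatment and time over the 12 libraries at 1 and 6 h. The edgeR quasi-likelihood test with Benjamini-Hochberg adjustment passed 4106 genes with a positive and 3787 with a negative difference of the 6 h minus the 1 h effect. All 1505 reversed genes are among them, and the sizes below describe the genes named above and add no support. A difference of 0 would mean the same fold change at both times.

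The difference on the log2 scale was negative for the named up-then-down genes, ordered from the widest. It was -8.40 for Sobic.001G255700, -7.45 for Sobic.004G221900, -7.44 for Sobic.001G311000, -6.25 for Sobic.001G372100, -6.14 for Sobic.003G034300 and -6.14 for Sobic.006G205600. The next were -5.94 for Sobic.010G088700, -5.36 for Sobic.010G267000, -5.12 for Sobic.010G175800, -5.07 for Sobic.001G406800, -4.92 for Sobic.002G172000 and -4.91 for Sobic.009G118600. Then came -4.79 for Sobic.002G213800, -4.57 for Sobic.002G344700, -4.54 for Sobic.003G334600, -4.47 for Sobic.004G164200, -4.43 for Sobic.003G300800 and -4.21 for Sobic.007G180300. These were followed by -4.21 for Sobic.007G141700, -4.04 for Sobic.002G039500, -3.96 for Sobic.005G012000, -3.91 for Sobic.009G238600, -3.87 for Sobic.010G270300 and -3.82 for Sobic.002G422300. Further values were -3.82 for Sobic.009G213000, -3.80 for Sobic.003G354000, -3.72 for Sobic.001G191200, -3.58 for Sobic.007G090463, -3.56 for Sobic.010G164400 and -3.55 for Sobic.008G032000. Next in size were -3.54 for Sobic.003G416500, -3.52 for Sobic.001G022400, -3.48 for Sobic.004G309600, -3.38 for Sobic.001G377000, -3.19 for Sobic.002G353800 and -3.13 for Sobic.002G221700. The next were -3.13 for Sobic.001G529700, -3.06 for Sobic.001G432800, -2.98 for Sobic.006G213500, -2.96 for Sobic.002G239200, -2.94 for Sobic.010G120800 and -2.91 for Sobic.010G057300. Then came -2.78 for Sobic.001G353900, -2.69 for Sobic.002G271100, -2.58 for Sobic.004G267400, -2.56 for Sobic.002G194700, -2.50 for Sobic.005G126600 and -2.38 for Sobic.010G186200. These were followed by -2.35 for Sobic.002G303100, -2.34 for Sobic.004G273200, -2.31 for Sobic.001G446900, -2.29 for Sobic.007G062100, -2.29 for Sobic.001G243000 and -2.27 for Sobic.007G154701. Further values were -2.26 for Sobic.005G096300, -2.26 for Sobic.009G195800, -2.18 for Sobic.010G242000, -2.15 for Sobic.002G121000, -2.12 for Sobic.003G139500 and -2.05 for Sobic.009G080200. Next in size were -2.01 for Sobic.007G148200, -1.97 for Sobic.004G066600, -1.94 for Sobic.001G277000, -1.82 for Sobic.001G024200, -1.80 for Sobic.003G136900 and -1.49 for Sobic.001G045700. The next were -1.46 for Sobic.001G068301, -1.42 for Sobic.006G273000, -1.33 for Sobic.006G018800, -1.29 for Sobic.001G057700 and -1.26 for Sobic.010G047400.

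For the named down-then-up genes the difference was positive. The widest were 6.01 for Sobic.009G206900, 5.01 for Sobic.010G259800, 4.75 for Sobic.001G488400, 4.61 for Sobic.006G051000, 4.23 for Sobic.003G183700 and 4.15 for Sobic.003G387600. The next were 3.94 for Sobic.003G361200, 3.68 for Sobic.001G535100, 3.62 for Sobic.009G038800, 3.44 for Sobic.010G006400, 3.43 for Sobic.003G285600 and 3.42 for Sobic.002G280700. Then came 3.11 for Sobic.010G054600, 3.00 for Sobic.010G032700, 2.98 for Sobic.009G042200, 2.84 for Sobic.007G155600, 2.49 for Sobic.002G145300 and 2.47 for Sobic.004G291500. These were followed by 2.43 for Sobic.007G153900, 2.41 for Sobic.002G385400, 2.37 for Sobic.008G104000, 2.32 for Sobic.003G297800, 2.30 for Sobic.007G089800 and 2.30 for Sobic.009G225900. Further values were 2.30 for Sobic.002G112100, 2.26 for Sobic.009G098100, 2.13 for Sobic.001G257700, 2.07 for Sobic.010G067900, 2.002 for Sobic.001G069900 and 1.92 for Sobic.009G250800. Next in size were 1.84 for Sobic.006G181800, 1.84 for Sobic.008G030000, 1.65 for Sobic.001G468600, 1.58 for Sobic.001G371100, 1.48 for Sobic.004G349700 and 1.45 for Sobic.006G173500. The next were 1.45 for Sobic.003G040000, 1.37 for Sobic.001G172400, 1.32 for Sobic.003G036400, 1.31 for Sobic.004G255500, 1.27 for Sobic.001G453300 and 1.16 for Sobic.003G221700.

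Of genes outside the reversed set, the widest negative and positive differences and those just outside the threshold were also past the test. The values were -10.20 for Sobic.002G042000, -9.49 for Sobic.001G239601, -9.44 for Sobic.004G300300, -2.94 for Sobic.010G215800, 1.78 for Sobic.003G063300 and 4.95 for Sobic.002G334200. The next were 5.17 for Sobic.006G175500 and 6.17 for Sobic.001G014700. For Sobic.001G239601, which had 0 reads in all leaf-removed libraries at 6 h, the size depends on the prior count of the fit.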

How the results depend on the processing

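Directions held under the alternatives run for the 1 h, 6 h and interaction values of genes named by the rule and of the dormancy/auxin associated genes. None (0) of these values changed sign, 5109 kept their side of the threshold, 198 lost it and 17 gained it. Other genes chosen after values were seen, and the 3 h values of single genes, were not part of this count. Most genes named by the rule were picked for wide effects and separate groups in these same libraries. A change of sign was therefore unlikely from the start, and its absence adds no support. Of the counts of genes 85 stayed within 1.5 times and 30 did not. With a replicate block by the letter within each time there were 4196 interaction genes, 103 up-then-down and 271 down-then-up, and at 3 h the replicate block left 57 up-then-down genes lower and 0 higher, and 64 down-then-up genes higher and 12 lower. Same-letter deviations had correlations between -0.42 and 0.54, positive for both pairs at 6 h (0.54 and 0.13), so the letters were not taken to pair the pools. A replicate block by the letter across both times gave 7076, 347 and 796. At an adjusted p under 0.01 the counts were 4759, 177 and 456, and with at least 2-fold changes 171 and 113 were reversed. Library totals left 669 down-then-up genes, and 249 of the main ones higher at 3 h. Up-then-down genes numbered 804 without the 4 deviating libraries and 800 with the intron covariate. Leaving out 1 library gave 6517 to 7841 interaction genes, 349 to 535 up-then-down and 660 to 953 down-then-up. At 3 h it gave 101 to 223 lower and 4 to 23 higher up-then-down genes, and 218 to 428 higher and 41 to 123 lower down-then-up genes. The cause was not tested. DESeq2 called 8867, 712 and 1071. Depth was 21.4 M exon reads or more, and genes under a few CPM rest on few reads.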
